A study of Mus musculus with 8 samples.

Results

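The respiratory chain genes of tumor-associated macrophages were described in 4 libraries labelled Atg5 KO and 4 libraries labelled Atg5 WT. The genes were chosen by name and type alone: protein-coding genes whose symbol starts with mt-, and the nuclear subunit genes of complexes I (Ndufa, Ndufb, Ndufc, Ndufs, Ndufv), II (Sdha to Sdhd), III (Uqcr) and IV (Cox4 to Cox8). The rule found 81 of the 35275 genes in the deposited table, 13 of them mitochondrial and 68 nuclear. Atg5 is needed to close the autophagosome, the vesicle that carries mitochondria and other cargo to the lysosome, and the study asked how its deletion in myeloid cells changes macrophage expression. All mice were female C57BL/6J, 6 to 8 weeks old, carried Atg5flox/flox alleles and received 100000 MC38 cells, a mouse colon adenocarcinoma line, under the skin. The group labelled Atg5 KO also carried LysMcre, a Cre recombinase inserted in the lysozyme gene Lyz2, so deletion was limited to cells that use this promoter. The Atg5 WT group carried the floxed alleles without Cre. Macrophages sorted as CD11b+ F4/80+ Ly6G- Ly6C- were taken from tumors at day 21, each library from its own mouse, with numbers 1 to 4 used in both groups.

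The respiratory chain passes electrons from NADH (complex I) and succinate (complex II) to coenzyme Q, then through complex III and cytochrome c to oxygen at complex IV. The protons pumped on the way drive ATP synthase, complex V. The mitochondrial genome encodes core subunits of complexes I, III, IV and V and is transcribed as long RNAs that are then cut into single messages, while all subunits of complex II and most subunits of the others are encoded in the nucleus, translated in the cytosol and imported. In macrophages the chain is known to be remodelled on inflammatory activation, for example by itaconate, which inhibits complex II.

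The targeted gene went against its label. Atg5 stood at 16.2, 13.8, 12.8 and 13.3 FPKM (fragments scaled by gene length and by all fragments assigned to genes in the library) in the KO-labelled mice 1 to 4 and at 6.73, 3.50, 3.93 and 3.91 FPKM in Atg5 WT mice 1 to 4. Every direction given here therefore rests on the label, and the whole-gene value also counts exons outside the floxed part. Lyz2, the gene that holds Cre, averaged 3022 ± 311 FPKM in the KO-labelled libraries and 5249 ± 825 FPKM in the Atg5 WT libraries (SD, n = 4 each), without overlap. Both mouse 1 libraries stood apart from the other 6 on the first principal component of all tested genes, which held 58.9% of the variance. The KO-labelled mouse 2 library stood apart on the second, which held 18.3%. Results that rest on these libraries are given with and without them. Assigned fragments numbered 14799546 to 25555195 per library. Of the 10 macrophage markers, 7 had a negative difference, KO-labelled minus Atg5 WT, and 3 a positive one. Csf1r (growth factor receptor) averaged 373 ± 21.8 FPKM in the KO-labelled libraries and 379 ± 11.8 FPKM in the Atg5 WT libraries (SD, n = 4 each). The complement gene C1qa averaged 1590 ± 390.4 FPKM in the KO-labelled and 2102 ± 209.95 FPKM in the Atg5 WT libraries. Ly6g, which the gate excludes, was at 0 in 7 libraries and 0.127 FPKM in KO-labelled mouse 3.

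What can be read from the mt- genes depends on their nuclear copies. The mouse nuclear genome carries a stretch of inserted mitochondrial DNA on chromosome 1 (mm10 24611535 to 24616197), and the deposited table lists its pieces as genes of their own. The start of mt-Co2, a subunit of complex IV that receives electrons from cytochrome c, and of its nuclear copy are shown to make the match visible, followed by mt-Nd3, a small membrane subunit of complex I, whose copy differs at a single base. Sequences are from GENCODE release 21 transcripts, read 5′ to 3′ along the transcript. Capitals mark the differing base.
mt-Co2: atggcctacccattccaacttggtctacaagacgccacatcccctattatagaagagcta
RP23-8J15.2: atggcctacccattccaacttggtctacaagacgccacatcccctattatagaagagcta
mt-Nd3: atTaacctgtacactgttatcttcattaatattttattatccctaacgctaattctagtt
RP23-8J15.5: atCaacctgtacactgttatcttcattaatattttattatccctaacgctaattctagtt
The mt-Co2 gene lies at chrMT:7013-7696 and its copy at chr1:24614885-24615565 on the minus strand. The copy matched over all 681 bases aligned, with 0 differences. The mt-Nd3 gene lies at chrMT:9459-9806 and its copy at chr1:24612775-24613119 on the minus strand. Over 345 aligned bases the only difference was T3C, counted from the first base of mt-Nd3, with the mitochondrial base first.

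By the same comparison, the copies of mt-Atp6 (678 bases), mt-Co3 (783 bases) and mt-Nd4l (294 bases) had 0 differences from the mitochondrial gene. Of all 100-base stretches of these genes, the share also found in an annotated nuclear transcript was 99.5% for mt-Co2, 99.5% for mt-Atp6, 99.9% for mt-Co3, 98.5% for mt-Nd4l and 97.6% for mt-Nd3. It was 60.8% for mt-Nd4, the longest piece being 876 bases with 0 differences, and 30.8% for mt-Co1, whose copy differed at 6 of 492 bases. For mt-Nd2 the share was 3.20%, and for mt-Nd1, mt-Nd5, mt-Nd6 and mt-Cytb it was 0. A fragment that lies wholly inside an identical copy cannot be placed by its sequence, and the counting rule used for such fragments is not stated in the labels or notes used here.

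The listed levels followed the annotated copies only in part. Apart from mt-Atp8, the 5 genes with little or no annotated copy stood between 303 and 1991 FPKM in single libraries. The 5 genes with a whole copy stood between 1.87 and 75.4 FPKM. Without an annotated copy, mt-Atp8 averaged 0.465 FPKM over the 8 libraries, and mt-Nd4, copied over 60.8% of its stretches, averaged 426 FPKM. Within complex IV, mt-Co1 averaged 4050 FPKM over the 8 libraries and mt-Co3 averaged 22.4 FPKM, although all 3 complex IV genes come from the same primary RNA. The whole copies of mt-Co2, mt-Co3, mt-Atp6 and mt-Nd4l had values of the same order as the genes they match. The copy of mt-Nd3 was listed below its gene in every library. It stood at 7.37, 3.23, 2.25 and 2.79 FPKM in the KO-labelled libraries, beside 8.10, 10.7, 9.60 and 7.65 FPKM for mt-Nd3. In the Atg5 WT libraries this copy stood at 8.34, 2.97, 2.37 and 2.55 FPKM, beside 14.8, 5.26, 5.73 and 6.99 FPKM for mt-Nd3. The partial copies were far lower than their genes. In KO-labelled mouse 1 the copy of mt-Nd4 stood at 10.3 FPKM beside 556 FPKM for mt-Nd4. There the copy of mt-Co1 stood at 58.1 FPKM beside 5184 FPKM, and that of mt-Nd2 at 0.0767 FPKM beside 803 FPKM. The copy of mt-Co2 stood at 49.3, 27.3, 27.9 and 27.5 FPKM in the KO-labelled libraries, beside 65.4, 28.7, 31.9 and 26.1 FPKM for mt-Co2. In the Atg5 WT libraries the copy stood at 56.6, 22.9, 32.2 and 24.01 FPKM, beside 75.4, 18.7, 26.5 and 20.8 FPKM for mt-Co2. The listed values of mt-Co2, mt-Co3, mt-Atp6, mt-Nd3 and mt-Nd4l are thus uncertain as levels, and the part that shared fragments play in them was not tested. The gene mt-Atp8, a small subunit of complex V, matched no annotated nuclear transcript but overlaps mt-Atp6 and held only 0 to 3 fragments per library. It starts between mt-Co2 and mt-Atp6, at chrMT:7766-7969. The copies of these neighbours lie at chr1:24614885-24615565 and chr1:24613974-24614651. The part of the insertion between them is not an annotated piece and was not searched, so a copy of mt-Atp8 there was not tested.

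**Figure D1:**
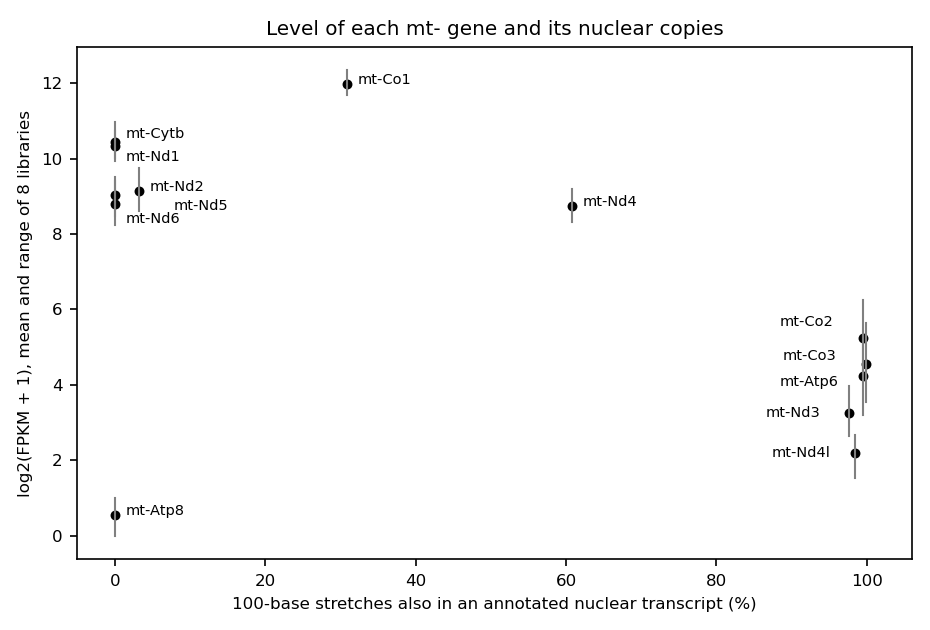
Each point is 1 mt- gene, with its mean log2(FPKM + 1) over the 8 libraries on the vertical axis (grey bar, lowest to highest library) and the share of its 100-base stretches found in an annotated nuclear transcript on the horizontal axis. The 5 genes with a whole copy lie between 1.87 and 75.4 FPKM in single libraries, far below mt-Nd1, mt-Nd2, mt-Nd5, mt-Nd6 and mt-Cytb, and mt-Atp8 is low without an annotated copy.

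The mt- genes showed no difference that passed the test over all 8 libraries. The test was limma on log2(FPKM + 1), with Benjamini-Hochberg adjustment over the 11019 genes with a mean of at least 1 FPKM. It called 0.0% of all genes, and 223 genes had an unadjusted p under 0.05, 1.2% of all tested genes on the higher and 0.826% on the lower side. Of the 12 mt- genes tested, 0 reached an unadjusted p under 0.05, and their groups overlapped in every case. Over all genes, 1.15% had KO-labelled libraries all above the Atg5 WT libraries and 0.59% all below. The fitted differences, KO-labelled minus Atg5 WT, were positive for 11 of the 12 and lay between -0.08 and 0.32, with a median of 0.24 beside 0.03 over all tested genes. Of all 11019 tested genes, 6450 had a positive and 4569 a negative difference. The mt- genes share primary transcripts and libraries, so these 12 values are not separate observations. In bulk RNA, fewer cells of a type and less RNA per cell cannot be told apart.

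Among the complex I genes, mt-Nd1, which forms part of the coenzyme Q site, was listed at 1879, 1728, 1145 and 1226 FPKM in the KO-labelled mice 1 to 4. In Atg5 WT mice 1 to 4 it was listed at 1991, 974, 1012 and 1091 FPKM. Both mouse 1 libraries and KO-labelled mouse 2 were high, and the other 5 libraries lay close together. The difference was 0.27 ± 0.25 (SE, log2(FPKM + 1) scale), with an exact permutation p of 0.343, two-sided, for 4 against 4. The proton-pumping subunits mt-Nd2, mt-Nd4 and mt-Nd5 had the same arrangement. For mt-Nd5 the values were 731, 647, 419 and 500 FPKM in the KO-labelled libraries and 679, 390, 354 and 437 FPKM in the Atg5 WT libraries, higher in the KO-labelled library of all 4 mouse numbers. Its difference of 0.32 ± 0.11 reached an unadjusted p of 0.022 when limma was given the mouse number as a block (adjusted p of 0.564). Libraries that share a number came from separate mice. For mt-Nd4 the values were 556, 557, 358 and 387 FPKM in the KO-labelled libraries and 581, 324, 318 and 327 FPKM in the Atg5 WT libraries. For mt-Nd2 they were 803, 722, 424 and 461 FPKM in the KO-labelled libraries and 863, 393, 408 and 423 FPKM in the Atg5 WT libraries. In both genes every KO-labelled library of mice 2 to 4 lay above the Atg5 WT libraries of mice 2 to 4, and Atg5 WT mouse 1 lay above them all.

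The gene mt-Nd6 is the only protein gene read from the opposite strand of the mitochondrial genome, and without strand information its fragments cannot be told apart from antisense ones. It was listed at 586, 571, 355 and 395 FPKM in the KO-labelled libraries. In the Atg5 WT libraries it was listed at 678, 303, 310 and 325 FPKM, so that it followed the arrangement of mt-Nd1. The low-listed complex I genes behaved less evenly. Between 34 and 111 fragments lay behind mt-Nd3, which was listed at 8.10, 10.7, 9.60 and 7.65 FPKM in the KO-labelled libraries and 14.8, 5.26, 5.73 and 6.99 FPKM in the Atg5 WT libraries. Between 9 and 41 fragments lay behind mt-Nd4l, which was listed at 5.40, 1.87, 4.42 and 2.48 FPKM in the KO-labelled libraries and 4.53, 2.90, 2.75 and 4.32 FPKM in the Atg5 WT libraries. It was the only tested mt- gene with a negative difference, -0.08 ± 0.26.

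Cytochrome b, the mitochondrial subunit of complex III (mt-Cytb), was listed at 1643, 1528, 1040 and 1208 FPKM in the KO-labelled libraries and 1688, 1078, 1043 and 1065 FPKM in the Atg5 WT libraries. Here KO-labelled mouse 3 was the lowest of all 8 libraries. In complex IV, mt-Co1, the catalytic subunit that reduces oxygen, was listed at 5184, 4665, 3521 and 3966 FPKM in the KO-labelled libraries. It was listed at 5082, 3303, 3330 and 3354 FPKM in the Atg5 WT libraries, and was higher in the KO-labelled library of all 4 mouse numbers. Of the 2 remaining complex IV genes, mt-Co3 was listed at 43.9, 18.5, 16.7 and 14.2 FPKM in the KO-labelled libraries and 48.9, 11.6, 14.6 and 10.7 FPKM in the Atg5 WT libraries. In complex V, mt-Atp6, part of the proton channel, was listed at 38.3, 15.3, 10.6 and 10.2 FPKM in the KO-labelled libraries and 39.9, 8.15, 12.98 and 8.24 FPKM in the Atg5 WT libraries. In both mt-Co3 and mt-Atp6 the mouse 1 libraries stood far above the other 6. For mt-Atp8 the values were 0.384, 0.303, 0 and 0.833 FPKM in the KO-labelled libraries and 0.455, 0, 0.752 and 0.994 FPKM in the Atg5 WT libraries, too low to be tested.

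**Figure D2:**
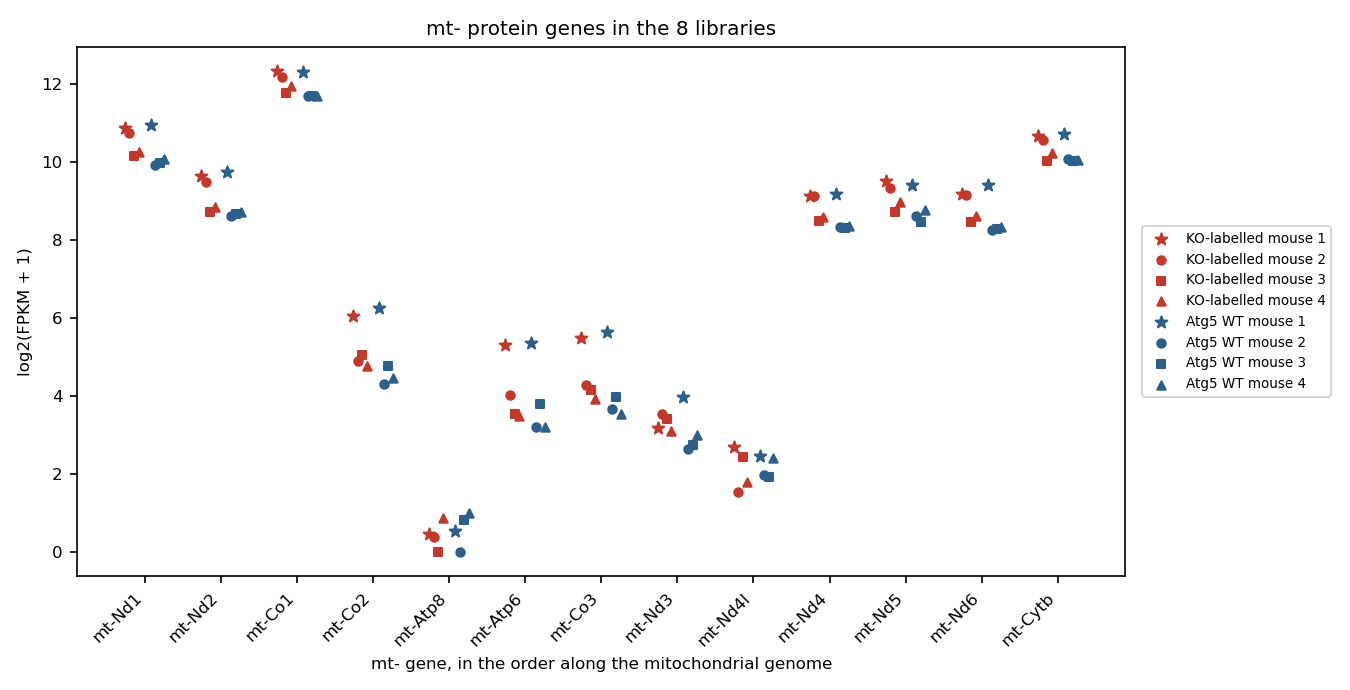
The 13 mt- genes stand in genome order on the horizontal axis, with log2(FPKM + 1) on the vertical axis and 1 point per library, KO-labelled libraries in red left of Atg5 WT libraries in blue. Stars are mouse 1: for mt-Nd1 they lie at 1879 and 1991 FPKM, KO-labelled mouse 2 (red circle) lies at 1728 FPKM, and the other 5 libraries lie between 974 and 1226 FPKM.

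The mt- comparison changed when mouse 1 was left out. Both mouse 1 libraries were the highest of all 8 for 10 of the 13 mt- genes, beside 29.8% of all tested genes, and KO-labelled mouse 2 lay above all libraries other than mouse 1 for 10 of the 13. Between the mouse 1 libraries, 10 of the 13 genes were lower in the KO-labelled than in the Atg5 WT library. In mice 2 to 4, 9 of the 13 were higher in the KO-labelled library of all 3 mouse numbers. Shares over all tested genes were not counted for these comparisons or for the one on KO-labelled mouse 2. Leaving out Atg5 WT mouse 1 alone moved the median difference of the mt- genes to 0.51, with 8 of 12 higher at an unadjusted p under 0.05, beside 4.81% of all genes tested in that fit (2.76% lower), and leaving out KO-labelled mouse 1 alone moved it to 0.10. Among mice 2 to 4 (3 libraries a group, 10836 genes tested), the median difference of the 12 mt- genes was 0.39, beside 0.03 over all tested genes. An unadjusted p under 0.05 was reached by 7 of the 12, all higher in the KO-labelled libraries: mt-Nd1, mt-Nd3, mt-Nd4, mt-Nd5, mt-Nd6, mt-Co2 and mt-Co3. Over all tested genes 3.43% did so on the higher and 2.21% on the lower side, and 0.00923% (1 gene, Atg5) passed the adjusted threshold. The adjusted p of each of the 7 was 0.778. The groups of mice 2 to 4 did not overlap for mt-Nd1, mt-Nd2, mt-Nd3, mt-Nd4, mt-Nd6 and mt-Co1, 6 of 12, all higher in the KO-labelled libraries, beside 10.3% of all genes higher and 4.49% lower.

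The size of that difference rested partly on KO-labelled mouse 2. Without it and without mouse 1, the median difference of the mt- genes was 0.21, and mt-Nd1, mt-Nd3, mt-Nd4, mt-Nd6 and mt-Co2, 5 of the 7, still had an unadjusted p under 0.05, beside 5.77% of all genes on the higher and 4.33% on the lower side. These 2 KO-labelled libraries lay above the 3 Atg5 WT libraries for 6 of the 12 genes and below them for 0, beside 18.3% of all genes tested above and 9.88% below. For mt-Nd6 the difference was 0.46 ± 0.17 in mice 2 to 4 and 0.26 ± 0.08 without KO-labelled mouse 2 as well (SE, unadjusted p of 0.0286 and 0.0111 in limma). For mt-Nd3, with its near-identical nuclear copy, it was 0.56 ± 0.14 and 0.46 ± 0.14 (SE, unadjusted p of 0.0056 and 0.0119 in limma). In mice 2 to 4 the median difference was 0.39 over mt-Nd1, mt-Nd2, mt-Nd5, mt-Nd6 and mt-Cytb, with little or no annotated nuclear copy (0.226 to 0.462). It was also 0.39 over the 5 genes with whole copies (-0.175 to 0.556), of which mt-Nd4l was negative. This split was chosen after seeing the data, and the part of the copies in the difference was not tested.

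Summed over the 13 genes, the mt- level was 11542, 10493, 7336 and 8203 FPKM in the KO-labelled libraries and 11745, 6812, 6838 and 7076 FPKM in the Atg5 WT libraries. As a share of all assigned fragments this was 1.503%, 1.365%, 0.965% and 1.08% in the KO-labelled libraries and 1.51%, 0.902%, 0.902% and 0.933% in the Atg5 WT libraries. All KO-labelled libraries of mice 2 to 4 lay above all Atg5 WT libraries of mice 2 to 4, and the mouse 1 libraries nearly coincided. The 68 nuclear genes summed to 3502, 3679, 4319 and 4199 FPKM in the KO-labelled libraries and 3981, 3990, 4231 and 4161 FPKM in the Atg5 WT libraries. The 2 libraries with the lowest nuclear sums, KO-labelled mice 1 and 2, were among the 3 with the highest mt- sums. The ratio of the mt- to the nuclear sum was 3.30, 2.85, 1.70 and 1.95 in the KO-labelled libraries and 2.95, 1.71, 1.62 and 1.70 in the Atg5 WT libraries, so KO-labelled mouse 3 fell among the Atg5 WT libraries. FPKM is a share of each library, and the part this plays in the sums was not tested.

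**Figure D3:**
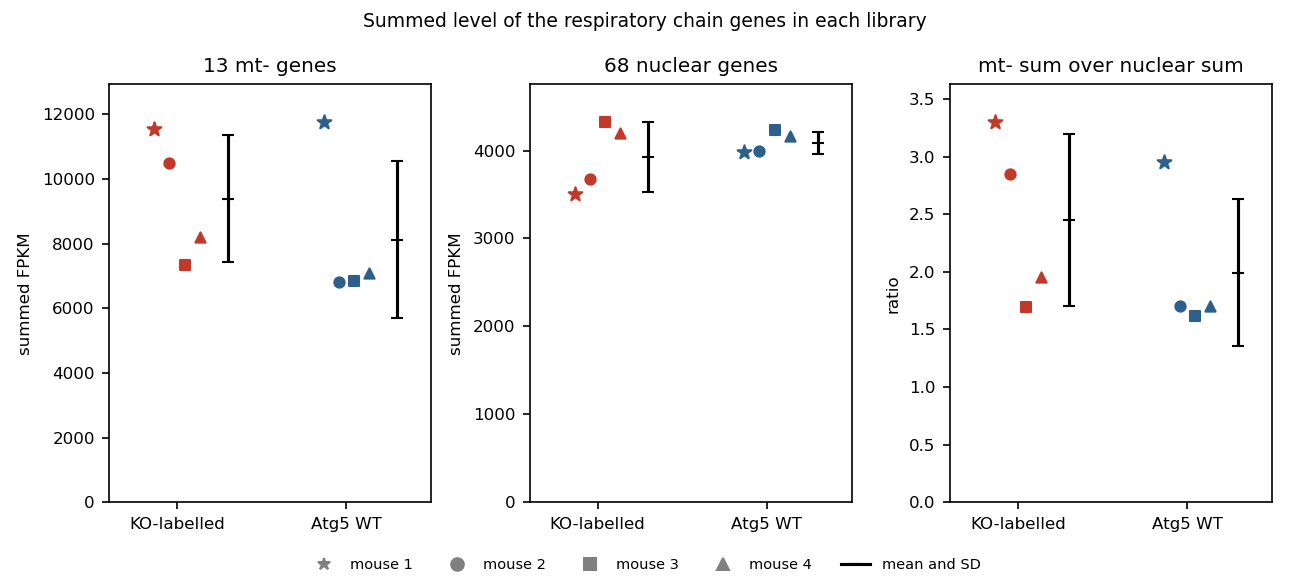
The 3 panels show the summed FPKM of the 13 mt- genes, the summed FPKM of the 68 nuclear genes and their ratio, with 1 point per library and black marks for the mean and SD of 4 libraries, KO-labelled left of Atg5 WT. The mt- sum averaged 9393 ± 1956 FPKM in the KO-labelled and 8118 ± 2421 FPKM in the Atg5 WT libraries, and the nuclear sum 3925 ± 396 FPKM in the KO-labelled and 4091 ± 125 FPKM in the Atg5 WT libraries, with overlapping groups in each panel.

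The nuclear subunit genes differed little between the groups. Of the 68, 63 passed the filter of a mean of 1 FPKM. None of the 63 reached an unadjusted p under 0.05 in limma or had groups without overlap, and the smallest unadjusted p was 0.104. The fitted differences lay between -0.29 and 0.18, with a median of -0.03. Of these, 23 were positive and 40 negative, beside 6450 positive and 4569 negative over all 11019 tested genes. Of the 75 tested members of both genomes, 5 (mt-Nd5, mt-Co1, Ndufa4, Ndufs5 and Sdha) were higher in the KO-labelled library of all 4 mouse numbers, beside 13.2% of all tested genes. Lower in all 4 were 9 members (Ndufb10, Ndufs3, Ndufs7, Ndufs8, Uqcr10, Uqcr11, Cox5a, Cox5b and Cox6a1), beside 6.52% of all tested genes. Blocked on mouse number, 0.00908% of all genes passed the adjusted threshold (1 gene, Atg5), and 5.19% had an unadjusted p under 0.05 on the higher and 3.62% on the lower side. Among the nuclear members only Ndufs7, an iron-sulfur subunit of complex I, did so there, and it was lower (adjusted p of 0.515). It was listed at 34.6, 43.4, 59.7 and 59.4 FPKM in the KO-labelled libraries and 46.3, 59.8, 62.9 and 70.2 FPKM in the Atg5 WT libraries. In mice 2 to 4, 2 of 63 had an unadjusted p under 0.05, both higher, 6 had KO-labelled libraries all above and 1 all below the Atg5 WT libraries, shares near those of all genes.

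**Figure D4:**
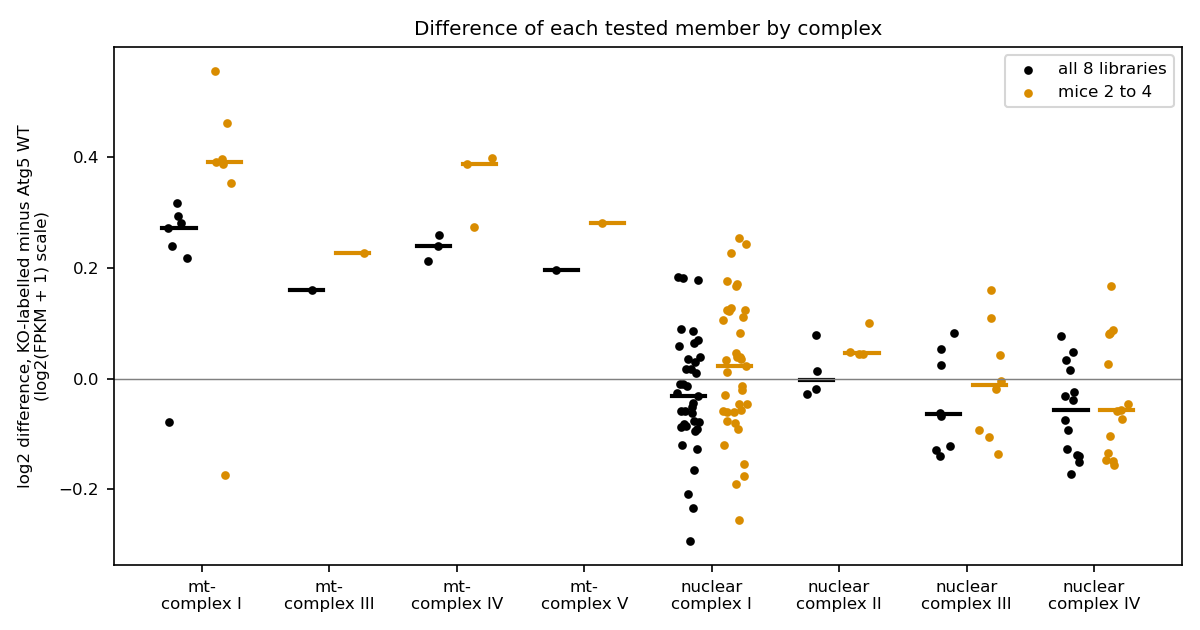
Each point is 1 tested gene, grouped by genome and complex on the horizontal axis, with the log2 difference (KO-labelled minus Atg5 WT, log2(FPKM + 1) scale) on the vertical axis; bars are medians. The mt- medians move up when mouse 1 is left out (orange against black), with 0.24 and 0.39 over all 12 genes, while the nuclear medians stay within 0.1 of 0.

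Complex I had 38 nuclear genes, 37 of them tested, with a median difference of -0.03. The lowest unadjusted p was that of Ndufb4, an accessory subunit of the membrane arm. It was listed at 11.7, 10.7, 16.1 and 13.8 FPKM in the KO-labelled libraries and 15.9, 14.9, 14.4 and 16.4 FPKM in the Atg5 WT libraries, a difference of -0.23 ± 0.13 (SE). Ndufs5, an accessory subunit of the intermembrane face, was listed at 33.1, 35.4, 41.9 and 38.3 FPKM in the KO-labelled libraries and 32.5, 32.2, 32.4 and 33.5 FPKM in the Atg5 WT libraries. The Atg5 WT libraries of Ndufs5 lay close together, and of the KO-labelled libraries only mouse 1 overlapped them. Its difference was 0.18 ± 0.10 over all libraries and 0.23 ± 0.09 in mice 2 to 4 (SE, unadjusted p of 0.0404 in limma). Its exact permutation p over 4 against 4 was 0.0571, the lowest of the tested members; 0.0286 is the smallest possible.

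Ndufs4, an accessory subunit whose loss gives a mouse model of Leigh syndrome, was listed at 19.3, 21.3, 21.0 and 17.5 FPKM in the KO-labelled libraries and 19.7, 16.7, 16.96 and 15.9 FPKM in the Atg5 WT libraries. Again only the mouse 1 library of the Atg5 WT group overlapped the KO-labelled values, and in mice 2 to 4 the difference was 0.25 ± 0.10 (SE, unadjusted p of 0.039 in limma). Ndufa11, a membrane-arm subunit, was listed at 10.5, 8.65, 11.8 and 12.6 FPKM in the KO-labelled libraries and 12.8, 12.9, 12.5 and 12.3 FPKM in the Atg5 WT libraries, with KO-labelled mouse 4 inside the Atg5 WT range. The most abundant nuclear complex I genes were Ndufa2 and Ndufs6, both accessory subunits. Ndufa2 averaged 77.9 ± 9.32 FPKM in the KO-labelled and 87.2 ± 6.75 FPKM in the Atg5 WT libraries (SD, n = 4 each). Ndufs6 averaged 70.3 ± 14.8 FPKM in the KO-labelled and 70.1 ± 11.3 FPKM in the Atg5 WT libraries. For this gene KO-labelled mouse 1 (48.2 FPKM) and Atg5 WT mouse 1 (53.8 FPKM) lay below the other 6 libraries, which spanned 72.3 to 78.9 FPKM. Stretches shared with another annotated gene made up 16.02% of Ndufb4 (with Ndufb4c) and 12.7% of Ndufs5 (with BC002163), so their counts may be split. At least 10% was shared in 8 of the 68 nuclear genes. One complex I gene, Ndufb2, averaged only 0.689 FPKM and was not tested, with a listed length of 4371 bases.

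Complex II, succinate dehydrogenase, is wholly nuclear. Its 4 genes summed to 244, 237, 242 and 237 FPKM in the KO-labelled libraries and 266, 223, 230 and 232 FPKM in the Atg5 WT libraries. Sdha, the flavoprotein that oxidises succinate, was listed at 66.8, 76.9, 70.4 and 70.4 FPKM in the KO-labelled libraries and 66.0, 67.2, 66.2 and 69.4 FPKM in the Atg5 WT libraries. It was higher in the KO-labelled library of all 4 mouse numbers, by 0.08 ± 0.09 (SE) on the log2(FPKM + 1) scale. The iron-sulfur subunit Sdhb averaged 78.6 ± 2.97 FPKM in the KO-labelled and 80.4 ± 8.93 FPKM in the Atg5 WT libraries. The membrane anchor Sdhc averaged 19.8 ± 1.80 FPKM in the KO-labelled and 20.2 ± 3.76 FPKM in the Atg5 WT libraries. For the other anchor, Sdhd, the average was 70.6 ± 7.59 FPKM in the KO-labelled and 69.97 ± 7.78 FPKM in the Atg5 WT libraries (SD, n = 4 each), so that both anchors were no further apart than their spread. Differences of these last 3 lay between -0.03 and 0.01.

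Complex III had 8 nuclear genes, all tested, with differences between -0.14 and 0.08. Uqcrc1, a core subunit, was the most abundant, at 83.0, 88.1, 98.1 and 96.8 FPKM in the KO-labelled libraries and 84.9, 88.8, 93.5 and 92.1 FPKM in the Atg5 WT libraries. Its neighbour in the complex, the core subunit Uqcrc2, was listed at 54.8, 39.3, 40.9 and 44.5 FPKM in the KO-labelled libraries and 54.6, 41.2, 36.6 and 37.7 FPKM in the Atg5 WT libraries. The 2 core subunits thus went opposite ways in mouse 1, where Uqcrc1 was lowest and Uqcrc2 highest of all libraries. The small subunits Uqcr10 and Uqcrq, the 2 with the lowest p, differed by -0.13 ± 0.14 and -0.14 ± 0.17 (SE). Uqcrb, which binds coenzyme Q, was at 45.4, 49.8, 52.0 and 53.0 FPKM in the KO-labelled libraries and 54.7, 45.6, 48.03 and 44.6 FPKM in the Atg5 WT libraries. For Uqcrb the groups of mice 2 to 4 did not overlap, and mouse 1 had the opposite order. In Uqcrc2, 15.5% of stretches were shared with Pdzd9.

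Complex IV had 18 nuclear genes, 14 of them tested, with a median difference of -0.06 and 10 of 14 negative. It held the most abundant nuclear members. Cox6a1, the widespread form of subunit 6a, was listed at 252, 368, 470 and 436 FPKM in the KO-labelled libraries and 294, 424, 499 and 494 FPKM in the Atg5 WT libraries. Both mouse 1 libraries were lowest, and the KO-labelled library was lower in all 4 mouse numbers. The difference was -0.17 on the log2(FPKM + 1) scale, with an SE of 0.23 without and 0.0776 with the mouse number as a block (unadjusted p of 0.468 and 0.0562 in limma, adjusted p of 0.999 and 0.572). Cox8a was listed at 240, 202, 311 and 294 FPKM in the KO-labelled libraries and 251, 256, 304 and 294 FPKM in the Atg5 WT libraries. Cox4i1, the ubiquitous form of subunit 4 through which ATP regulates the enzyme, was listed at 191, 200, 225 and 237 FPKM in the KO-labelled libraries and 241, 246, 226 and 222 FPKM in the Atg5 WT libraries. Cox6b1, which sits at the interface of the dimer, averaged 184 ± 25.5 FPKM in the KO-labelled and 199 ± 6.51 FPKM in the Atg5 WT libraries (SD, n = 4 each). Cox5a, a matrix-side subunit, averaged 57.5 ± 6.47 FPKM in the KO-labelled and 63.6 ± 8.66 FPKM in the Atg5 WT libraries.

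Tissue-restricted forms were low. Cox4i2, a form known from lung and induced by low oxygen, averaged 3.99 ± 0.868 FPKM in the KO-labelled and 4.49 ± 0.249 FPKM in the Atg5 WT libraries (SD, n = 4 each). Among the heart and muscle forms, Cox7a1 averaged 7.52 ± 2.15 FPKM in the KO-labelled and 7.41 ± 2.41 FPKM in the Atg5 WT libraries, and Cox6a2 averaged 0.788 ± 0.495 FPKM in the KO-labelled and 0.967 ± 0.209 FPKM in the Atg5 WT libraries. The testis form Cox6b2 averaged 1.66 ± 0.770 FPKM in the KO-labelled and 1.67 ± 0.536 FPKM in the Atg5 WT libraries. The means of these 3 genes were within 1 SD of each other. Ndufa4l2, a hypoxia-induced relative of Ndufa4, averaged 2.98 ± 0.857 FPKM in the KO-labelled and 3.06 ± 0.562 FPKM in the Atg5 WT libraries. Ndufa4 itself, named for complex I but since assigned to complex IV, was named here after its values were seen: it averaged 29.2 ± 3.97 FPKM in the KO-labelled and 25.7 ± 5.31 FPKM in the Atg5 WT libraries, and was higher in the KO-labelled library of all 4 mouse numbers. Cox7b2 was listed at 0 in all 8 libraries. Cox8b was above 0 only in KO-labelled mouse 4 (0.156 FPKM) and Atg5 WT mouse 2 (0.298 FPKM), and Cox8c only in Atg5 WT mouse 4 (0.142 FPKM). AA467197, a small protein known to replace Ndufa4 in complex IV of inflamed macrophages, stood at 316, 389, 407 and 297 FPKM in the KO-labelled libraries and 383, 298, 311 and 350 FPKM in the Atg5 WT libraries, above Ndufa4 in every library but with overlapping groups. Irg1, the enzyme that makes itaconate, stood at 52.0, 60.4, 64.5 and 30.5 FPKM in the KO-labelled libraries and 34.8, 38.0, 35.6 and 48.5 FPKM in the Atg5 WT libraries, a difference of 0.35 ± 0.22 (SE, unadjusted p of 0.149 in limma).

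The nuclear members did not move together in mouse 1. Both mouse 1 libraries were the highest of all 8 for 12 of the 63 tested nuclear genes and the lowest for another 12, beside 29.8% and 14.7% of all tested genes. The 12 lowest were Ndufa1, Ndufa3, Ndufa5, Ndufa6, Ndufa13, Ndufb8, Ndufs6, Uqcr10, Uqcr11, Uqcrc1, Cox5b and Cox6a1. The 12 highest were Ndufs1, the largest iron-sulfur subunit of complex I, with Ndufv2, Ndufa4, Ndufa10, Ndufab1, Ndufb5, Ndufc2, Sdhc, Sdhd, Uqcrc2, Uqcrfs1 and Uqcrh, and both sets held core and accessory subunits. The listed gene length had a median of 612.5 bases for the 12 lowest, 1452 bases for the 12 highest and 960 bases for the 39 others. Over all tested genes the medians were 3142 bases for those lowest in mouse 1, 3070 bases for those highest and 2882 bases for the rest, so no such step was seen there. Why these libraries stood apart was not tested.

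**Figure D5:**
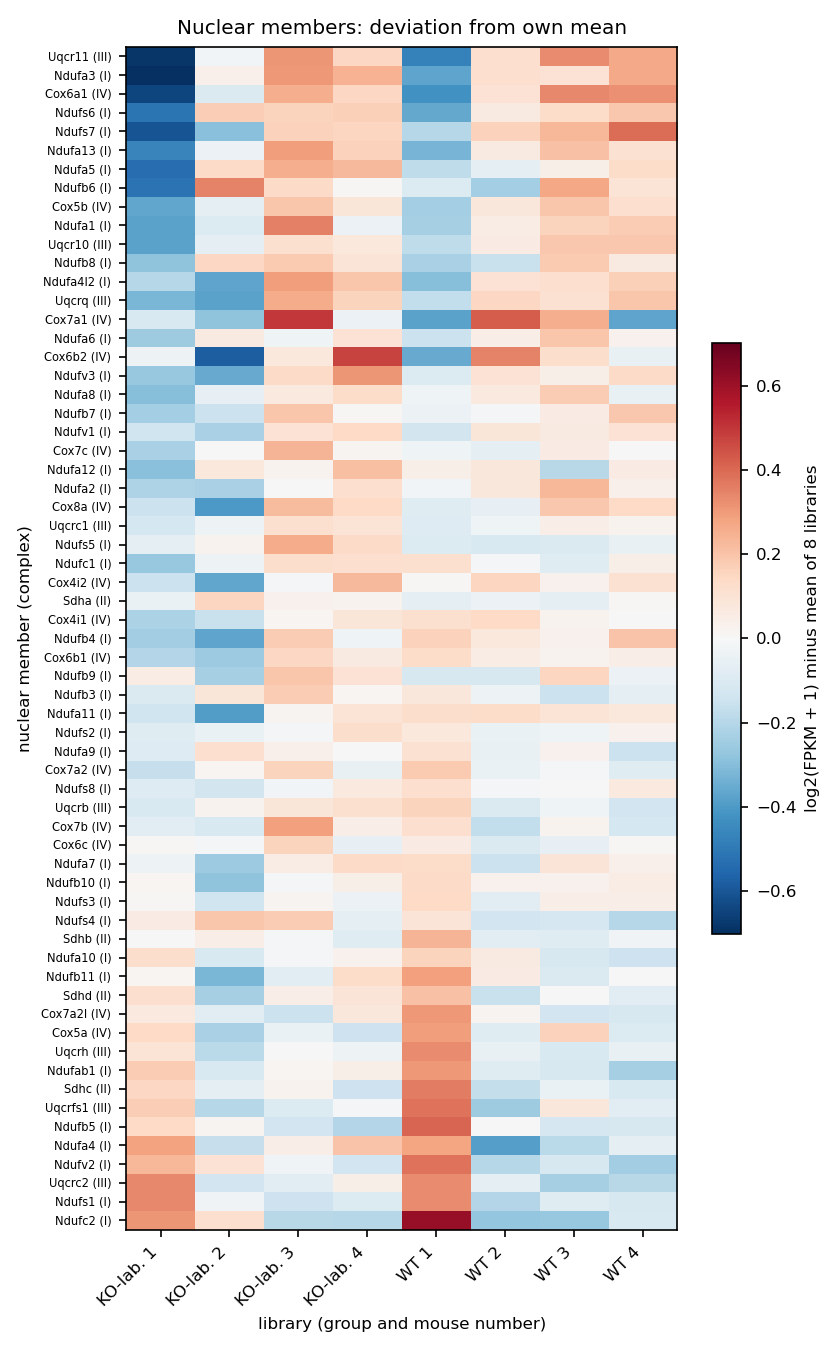
Rows are the 63 tested nuclear genes (complex in brackets), sorted from lowest to highest in mouse 1, and columns the 4 KO-labelled libraries followed by the 4 Atg5 WT libraries; colour is log2(FPKM + 1) minus the gene's mean over 8 libraries. Both mouse 1 columns are blue at the top (12 genes lowest of all 8) and red at the bottom (12 genes highest), and no row separates the 2 groups.

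Genes that build and express the chain were counted in the same fit. Of 16 tested assembly factors of complex I, 1 had an unadjusted p under 0.05 on the higher and 0 on the lower side, beside 1.2% and 0.826% of all tested genes. This was Tmem186, listed at 2.73, 2.58, 2.25 and 2.69 FPKM in the KO-labelled libraries and 1.71, 1.85, 2.05 and 2.27 FPKM in the Atg5 WT libraries. No gene of the other 5 groups had an unadjusted p under 0.05: 26 tested assembly factors of complexes II to IV (median difference 0.01), 19 nuclear ATP synthase genes (-0.03), 2 cytochrome c and c1 genes (-0.01), 15 genes of mitochondrial RNA stability and processing (0.06) and 11 regulators of mitochondrial biogenesis (-0.01). Of 13 genes for copying and transcribing mitochondrial DNA, 2 were higher with an unadjusted p under 0.05, beside 1.2% of all tested genes, and neither passed adjustment (adjusted p of 0.999 in limma). Tefm, the elongation factor of the mitochondrial RNA polymerase, stood at 2.39, 2.55, 3.42 and 2.64 FPKM in the KO-labelled libraries and 2.27, 1.60, 1.99 and 1.81 FPKM in the Atg5 WT libraries, without overlap, as 1.15% of all tested genes were on that side. Tfb1m, which methylates mitochondrial ribosomal RNA, stood at 3.10, 2.61, 2.79 and 2.86 FPKM in the KO-labelled libraries and 2.17, 2.68, 1.96 and 1.99 FPKM in the Atg5 WT libraries. Tfam, which packages mitochondrial DNA and starts its transcription, stood at 5.14, 3.62, 3.04 and 3.92 FPKM in the KO-labelled libraries and 5.39, 2.78, 3.24 and 3.03 FPKM in the Atg5 WT libraries, high in mouse 1 like the mt- genes. Gabpb2, a subunit of the ETS factor GABP, had the lowest p of the biogenesis regulators, at 10.4 ± 1.27 FPKM in the KO-labelled and 8.89 ± 0.127 FPKM in the Atg5 WT libraries (SD, n = 4 each, unadjusted p of 0.0825 in limma). The main coactivator of mitochondrial biogenesis, Ppargc1a, stayed between 0 and 0.105 FPKM, and its relative Ppargc1b between 2.54 and 6.21 FPKM.

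Other measures also differed between the libraries. The 4 nuclear-retained RNAs, used as a sign of RNA quality, summed to 214, 368, 304 and 256 FPKM in the KO-labelled libraries and 195, 203, 195 and 224 FPKM in the Atg5 WT libraries, and for the largest of them, Malat1, KO-labelled mouse 2 was highest at 308 FPKM. Xist, Malat1 and Neat1 were tested and differed by 0.44, 0.45 and 0.42 (unadjusted p of 0.0291, 0.0321 and 0.0522 in limma). Over all tested genes, 1.2% were higher with an unadjusted p under 0.05. In mice 2 to 4 these RNAs differed by 0.54, 0.57 and 0.33 (unadjusted p of 0.0154, 0.0056 and 0.0856 in limma), beside 3.43% of all tested genes higher under 0.05. None passed adjustment. The 10 macrophage markers summed to 7550 to 10017 FPKM in the KO-labelled and 11442 to 12843 FPKM in the Atg5 WT libraries. These sums include Lyz2, the gene that holds Cre. Among the markers Lyz2, C1qa and C1qb were lower with an unadjusted p under 0.05 and Itgam, which encodes CD11b, was higher (differences of -0.79, -0.43, -0.35 and 0.34). Over all tested genes, 0.826% were lower and 1.2% higher at that threshold. C1qc, with a difference of -0.48, had an unadjusted p of 0.0518 in limma, and none of the 10 passed adjustment. The remaining markers Csf1r, Emr1, Fcgr1, Mertk and Cd68 differed by -0.02, 0.01, -0.05, 0.11 and -0.23. The 9 fibroblast markers summed to 1049 to 1498 FPKM in the KO-labelled and 906 to 1323 FPKM in the Atg5 WT libraries. All 6 tested had a positive difference, as had 6450 of all 11019 tested genes, and 4 of the 6 were highest in both mouse 1 libraries, beside 29.8%. In limma, 1 of the 6 was higher with an unadjusted p under 0.05 over all libraries, 5 with the mouse number as a block and 4 in mice 2 to 4. The shares over all tested genes were 1.2%, 5.19% and 3.43%. The lowest block p was that of Col3a1 (1.7e-05, adjusted p of 0.094). The 8 monocyte markers, 7 of them with a positive difference, summed to 206 to 330 FPKM in the KO-labelled and 164 to 252 FPKM in the Atg5 WT libraries. In the same 3 fits, 1, 4 and 3 of the 8 were higher with an unadjusted p under 0.05. No fibroblast or monocyte marker passed adjustment. The 9 neutrophil markers summed to 32.5 to 51.7 FPKM in the KO-labelled and 24.1 to 49.0 FPKM in the Atg5 WT libraries, with Retnlg the largest part, and of the 3 tested S100a8 differed by 0.92 ± 0.41 and S100a9 by 0.84 ± 0.42 (SE, unadjusted p of 0.049 and 0.0782 in limma). No macrophage, fibroblast, monocyte or neutrophil marker was at 0 in all 8 libraries. The part of other cells and of RNA quality in the mt- values was not tested.

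The promoters of the nuclear genes were read for the motifs known to drive respiratory chain genes. RefSeq promoters (GRCm38.p6, 250 bases before to 50 after the start) matched 54 of the 68 by symbol. A gene was counted if any of its promoters held the motif. The core motif of NRF1, GCATGCGC on either strand, was in 7 of the 54 (12.96%), beside 3.05% of all 27025 genes with a promoter. The ETS motif bound by GABP, CCGGAAG, was in 11 (20.4%), beside 9.93%. The YY1 motif AANATGGCG was in 7 (12.96%), beside 2.76%, and the TATA box TATAAA in 6 (11.1%), beside 15.7%. Windows of the most abundant genes with a match are shown, with the motif in capitals as it reads on the gene's strand.
Cox6a1, NRF1: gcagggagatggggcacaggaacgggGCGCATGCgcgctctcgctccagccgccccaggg
Uqcrc1, NRF1: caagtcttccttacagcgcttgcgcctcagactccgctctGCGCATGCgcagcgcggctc
Cox6a1, ETS: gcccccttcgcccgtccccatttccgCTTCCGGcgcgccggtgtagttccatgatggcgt
Cox8a, ETS: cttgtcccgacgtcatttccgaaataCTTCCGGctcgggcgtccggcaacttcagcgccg
The Cox6a1 windows lie at chr5:115349087-115349146 (NRF1) and chr5:115348941-115349000 (ETS), both on the minus strand, the Uqcrc1 window at chr9:108936638-108936697 on the plus strand and the Cox8a window at chr19:7217588-7217647 on the minus strand. A match describes these letters and is not a measured binding site. Nrf1 itself stood at 8.35 ± 0.377 FPKM in the KO-labelled and 8.48 ± 0.444 FPKM in the Atg5 WT libraries (SD, n = 4 each), and Gabpa, the DNA-binding subunit of GABP, at 9.58 ± 2.32 FPKM in the KO-labelled and 8.72 ± 2.57 FPKM in the Atg5 WT libraries.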

How the data were processed

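RNA was extracted from 500000 to 1000000 sorted macrophages per tumor (Zymo kit), and the NEBNext Ultra RNA kit served for library preparation, per the labels' protocols. STAR, CASAVA and mm10 are named, without roles, in the submitters' processing notes. The counting tool, strand setting, annotation release and treatment of fragments shared by several genes are not stated there. As deposited by the authors, the table holds FPKM values for 35275 genes with names, lengths and coordinates. FPKM multiplied by gene length was a whole multiple of 1 step in 100% of values (within 0.01 fragments), which gave the fragments per gene. No 2 libraries of a group agreed within sampling noise (lowest chi-square per degree of freedom 8.5), so all 8 were kept.

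The test was limma 3.58.1 (R 4.3.3) with a mean-variance trend on log2(FPKM + 1), two-sided, for genes with a mean of at least 1 FPKM, with Benjamini-Hochberg adjustment at 0.05 over all tested genes. This scale understates the change of low genes. Single members were also compared by exact permutation of 4 against 4 (70 assignments, smallest p 0.0286). The procedure was also run on simulated fragments with the same assumed spread for every gene and no libraries standing apart. The deposited libraries differ from that setting, so nothing about them was concluded from it. Alternatives were another pseudocount (0.1), filter (none, 5 FPKM), scaling, TPM, voom on recovered fragments, the mouse number as a block, and leaving out libraries.

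The members and lists were chosen with earlier results of these data known. Members named were all mt- genes, complex II, the 4 lowest p and 2 highest means of the other complexes, and tissue-restricted forms; Ndufs7 and Ndufa4 were added after their values were seen, as were Nrf1, Gabpa, Tfam, the macrophage and neutrophil markers and the biogenesis coactivators. Same-numbered libraries deviated together from their group means (r over genes 0.841, 0.208, 0.458 and 0.471 for mice 1 to 4), so the numbers were taken to pair them. The labels name separate mice, and among mice 2 to 4 alone r was 0.297, -0.134 and 0.205, so the pairing comes mostly from mouse 1.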

Additional observations from a re-analysis of the deposited data

Results flagged for a closer look

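Single libraries far from the others of their group were looked for in 98 groups of 4 (49 measures in each group), and 19 stood out. About 4.9 would by chance if the measures were separate. They are not, as the mt- genes share primary transcripts and libraries and the mt- sums, shares and ratios are made from them. Of the 19, 13 were Atg5 WT mouse 1 and 3 were KO-labelled mouse 1. In Atg5 WT mouse 1 the high values were mt-Nd1 at 1991 FPKM (the other 3 libraries at 974 to 1091), mt-Nd2 at 863 (393 to 423), mt-Nd4 at 581 (318 to 327) and mt-Nd6 at 678 (303 to 325). The same library had mt-Cytb at 1688 FPKM (1043 to 1078), mt-Co1 at 5082 (3303 to 3354) and mt-Atp6 at 39.9 (8.15 to 12.98). Its mt- share of fragments was 1.51% (0.902% to 0.933%), its mt- sum 11745 FPKM (6812 to 7076) and its mt- over nuclear ratio 2.95 (1.62 to 1.71). Ndufa4l2 was low in it, at 2.22 FPKM (3.25 to 3.45).

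In both groups mouse 1 stood out for mt-Co2, at 65.4 FPKM in the KO-labelled (26.1 to 31.9) and 75.4 FPKM in the Atg5 WT library (18.7 to 26.5). It did so for mt-Co3 too, at 43.9 FPKM in the KO-labelled (14.2 to 18.5) and 48.9 FPKM in the Atg5 WT library (10.7 to 14.6). Ndufs6 was low in KO-labelled mouse 1, at 48.2 FPKM (77.1 to 78.0). Cox8b was at 0.156 FPKM in KO-labelled mouse 4 and 0.298 FPKM in Atg5 WT mouse 2, and Cox8c at 0.142 FPKM in Atg5 WT mouse 4, each with the other 3 libraries of its group at 0.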

How the results depend on the processing

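No respiratory chain gene passed the adjusted threshold under any of the alternatives run. Over all genes, 0 were called in the main test, against 1 (Atg5) with a replicate block, median-of-ratios scaling or voom on recovered fragments, 1 in mice 2 to 4 (with or without a replicate block, or without KO-labelled mouse 2) and 3 in voom with a replicate block; leaving out single libraries gave 0 to 1. The number of mt- genes at an unadjusted p under 0.05 was 0, against 1 with a replicate block in limma or voom, 7 in mice 2 to 4 with or without the block, 5 without KO-labelled mouse 2 as well, and 0 to 8 with single libraries left out. For nuclear genes it was 0, against 1 with the block or TPM, 3 in voom with the block, 2 in mice 2 to 4 with or without the block, 5 without KO-labelled mouse 2 as well (median difference 0.059), and 0 to 2 with single libraries left out. The fits of mice 2 to 4 with the block and without KO-labelled mouse 2, and the split by nuclear copies, were chosen after seeing the data. The median of the mt- genes stayed positive throughout, between 0.10 and 0.51; that of the nuclear genes lay between -0.08 and 0.06.

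The sign changed in 49 of 644 refits of 36 members, none of them past the adjusted threshold. The difference of mt-Atp6 turned negative without KO-labelled mouse 1 or Atg5 WT mouse 2 or 4, and that of Cox8a positive without KO-labelled mouse 2. Leaving out single libraries gave -0.27 to 0.12 for mt-Nd4l, -0.050 to 0.68 for mt-Co2, -0.082 to 0.74 for mt-Co3, -0.21 to 0.68 for mt-Atp6, -0.13 to 0.16 for Ndufs6 and -0.015 to 0.21 for Uqcrc2. It gave -0.0100 to 0.070 for Uqcrc1, -0.34 to 0.014 for Cox6a1, -0.18 to 0.025 for Cox8a, -0.060 to 0.048 for Sdhb, -0.078 to 0.098 for Sdhc and -0.037 to 0.092 for Sdhd. It gave -0.15 to 0.073 for Ndufa4l2, -0.19 to 0.16 for Cox6b2 and -0.13 to 0.18 for Cox7a1. On TPM, the values were 0.027 for Ndufs6, 0.010 for Sdhb and 0.018 for Sdhc, and in mice 2 to 4 they were 0.039 for Ndufs6, 0.044 for Sdhb, 0.047 for Sdhc and -0.046 for Cox7a1. Median-of-ratios scaling gave -0.0097 for Uqcrc1 and -0.021 for Sdhd, voom gave -0.0040 for Uqcrc1, -0.016 for Sdhd and -0.0018 for Cox7a1, and voom with the block gave -0.0050 for Uqcrc1 and -0.016 for Sdhd. The cause of these changes was not tested. Values of mt-Atp8, mt-Nd4l, Cox8b and Cox8c rest on few fragments.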
